A study of Mus musculus with 12 samples.

Results

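The mouse genome carries 8 Smad genes, whose proteins take signals of the TGF-β family from membrane receptors to the nucleus, and 2 Smurf genes, whose proteins mark Smads and their receptors for breakdown. These 10 genes were found by symbol in a deposited table of 29454 genes measured in the hippocampus of mouse pups. Each symbol occurs once there. All 10 passed a filter that kept genes with at least 1 FPKM in at least 3 of the 12 libraries, as did 16503 genes in all. FPKM is the number of fragments per kilobase of transcript, scaled to a library's total, so that genes of different length can be set side by side. Smad6 reached 1 FPKM in 8 libraries and the other 9 members in all 12.

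Ligands of the TGF-β family bring together a pair of receptor kinases, which phosphorylate a receptor-regulated Smad. Smad2 and Smad3 serve the TGF-β and activin receptors, and Smad1, Smad5 and Smad9 serve the BMP receptors. Phosphorylated Smads join the shared partner Smad4 and bind DNA in the nucleus, while Smad6 and Smad7 block the receptors and recruit the ubiquitin ligases Smurf1 and Smurf2. In the developing hippocampus these pathways are known for roles in the division, quiescence and differentiation of neural stem cells and in synapse formation. Signalling through Smads works by phosphorylation, which RNA levels do not measure.

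The pups were littermates of 3 genotypes with the strain given as C57/BL6. WT pups (3 libraries) had neither transgene. CAMK pups (3 libraries) carried CaMKIIα-tTA, a driver that makes the tetracycline-controlled transactivator in forebrain neurons. CX3CL1-ct pups (6 libraries) carried the same driver together with Tg-CX3CL1-ct, a transgene encoding the C-terminal piece of CX3CL1, a chemokine held in the membrane of neurons, from a line backcrossed to C57BL/6J for 6 generations. CX3CL1-ct against CAMK therefore compares pups that all have the driver, while either group against WT includes the driver itself. The study is known to have asked whether this intracellular piece of CX3CL1 acts on neurogenesis, with TGF-β and Smad signalling among the pathways examined. The age is postnatal day 4 in the labels of the samples but day 0 in the design text. No label states that each library is a separate animal, so that all p-values measure the spread between these samples, which may in part be technical.

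The members lie on 7 chromosomes (mm10, positions counted from 1). Smad4 (ENSMUSG00000024515, 73639009 to 73703780, minus strand), Smad7 (ENSMUSG00000025880, 75367529 to 75395935, plus) and Smad2 (ENSMUSG00000024563, 76241580 to 76305731, plus) share chromosome 18, with gaps of 1663.7 and 845.6 kb. Smad3 (ENSMUSG00000032402, 63646767 to 63757994) and Smad6 (ENSMUSG00000036867, 63953076 to 64022059) lie 195.1 kb apart on the minus strand of chromosome 9. Smad1 is on chromosome 8 (ENSMUSG00000031681, 79338395 to 79399518, minus), Smad5 on chromosome 13 (ENSMUSG00000021540, 56703010 to 56742377, plus) and Smad9 on chromosome 3 (ENSMUSG00000027796, 54755582 to 54801257, plus). Smurf1 is on chromosome 5 (ENSMUSG00000038780, 144876495 to 144965847, minus) and Smurf2 on chromosome 11 (ENSMUSG00000018363, 106820066 to 106920761, minus). Exons of Smad5 share 100 nt with the small RNA gene Gm27301, and exons of Smurf2 share 58 nt with the miRNA gene Gm27322, each on the same strand, so fragments there could be counted for either gene. The other 8 members share no exon with an annotated gene.

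Depth was estimated at 12200000 to 16200000 fragments per library, and 15318 to 15861 genes reached 1 FPKM. The libraries CX3CL1-ct 1, 2 and 3 were closer to each other than the remaining libraries of their group were. All 8 defining genes of the hippocampus were above 0 in every library, among them Zbtb20 at 24.7 to 65.8 FPKM and Prox1 at 4.78 to 14.9. Their summed level was lowest in CX3CL1-ct 5 (100.4 FPKM) and spanned 196 to 301 FPKM in WT and 203 to 212 in CAMK. Marker genes of the striatum, a neighbouring forebrain region, were summed to 283 FPKM at most in WT, against a range of 72.6 to 78.6 in CAMK. The tissue is measured in bulk, so fewer cells of a type and less RNA per cell cannot be told apart.

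RefSeq promoter sequences (GRCm38.p6), matched by symbol, were used for 7 of the 10 members. Smad2, Smad4 and Smad7 were not searched, because the chromosome they share was left out. Shown are the stretches just upstream of the annotated gene for Smad1, Smad6 and Smad9, because in each of these genes the libraries of a pair of groups did not overlap. The same held for Smad2, which was left out with its chromosome. The windows are chr8:79399519-79399678 (minus strand) for Smad1, chr9:64022060-64022309 (minus) for Smad6 and chr3:54755332-54755581 (plus) for Smad9, each written 5′ to 3′ with matched motifs in capitals.
Smad1: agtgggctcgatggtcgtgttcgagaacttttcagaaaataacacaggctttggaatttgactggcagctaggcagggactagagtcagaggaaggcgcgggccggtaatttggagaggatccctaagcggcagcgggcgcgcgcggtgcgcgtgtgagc
Smad6: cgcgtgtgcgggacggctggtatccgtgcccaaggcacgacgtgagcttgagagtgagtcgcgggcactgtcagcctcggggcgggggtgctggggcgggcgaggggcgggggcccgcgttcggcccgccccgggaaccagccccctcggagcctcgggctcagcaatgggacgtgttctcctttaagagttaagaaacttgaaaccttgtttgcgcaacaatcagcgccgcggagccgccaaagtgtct
Smad9: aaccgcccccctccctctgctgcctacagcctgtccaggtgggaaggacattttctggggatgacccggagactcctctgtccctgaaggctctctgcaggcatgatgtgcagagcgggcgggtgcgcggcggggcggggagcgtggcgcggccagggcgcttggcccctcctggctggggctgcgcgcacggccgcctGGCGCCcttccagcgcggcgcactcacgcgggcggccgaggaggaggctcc
The motifs searched on both strands were CAGAC (read as GTCTG on the other strand), a short element that Smad3 and Smad4 are known to bind, the palindrome GGCGCC, a GC-rich element bound by BMP-type Smads, and the palindrome GTCTAGAC, which holds no further copy of CAGAC. Smad9 had 1 GGCGCC, and the Smad1 and Smad6 windows held none of the 3 motifs. Of all 32851 promoters, 9.59% had GGCGCC, 42.2% had CAGAC and 0.167% had GTCTAGAC in the same 250 bases, and in the 160 bases that match the Smad1 window the shares were 5.3%, 30.3% and 0.122%. Among the other matched members, Smurf1 had 2 CAGAC matches, Smurf2 had 1 CAGAC and 2 GGCGCC matches, and Smad3 and Smad5 had none. All 3 windows shown were rich in CG dinucleotides, with 14 in Smad1, 27 in Smad6 and 24 in Smad9, where the median over all promoters was 3 for 160 bases and 6 for 250. Such matches describe letters in a window and are not measured binding.

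On the FPKM scale the family split into a high and a low tier. Smad2 (mean 23.7 FPKM over 12 libraries), Smad4 (22.7), Smad5 (20.4), Smad1 (17.5), Smurf2 (14.1) and Smurf1 (13.9) formed the high tier. Smad3 (3.95), Smad7 (3.69), Smad9 (1.26) and Smad6 (1.18) formed the low tier. Smad2 stood at the 80.5th percentile of mean FPKM among the genes tested and Smad6 at the 7.26th. The ranges of neighbours in this order overlapped except at 2 steps, from Smurf1 to Smad3 and from Smad7 to Smad9, where the order held in 12 of 12 libraries. Smad2 was above Smad4 in 7 of 12 libraries, Smurf2 above Smurf1 in 8 and Smad9 above Smad6 in 6, so those neighbours were not separated. Smad2, the more abundant TGF-β-type Smad, exceeded Smad3 by 4.04 to 7.75 times in every library.

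Of the summed FPKM of the 8 Smad genes, Smad2 held 25.1% ± 1.92 (SD, n = 12), the shared partner Smad4 24.1% ± 1.89, Smad5 21.6% ± 1.95 and Smad1 18.5% ± 1.49. Smad3 held 4.19% and the inhibitory Smad7 and Smad6 3.91% and 1.26%. The sum itself ranged from 82.4 FPKM in WT 1 to 103 FPKM in CX3CL1-ct 2.

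**Figure D1:**
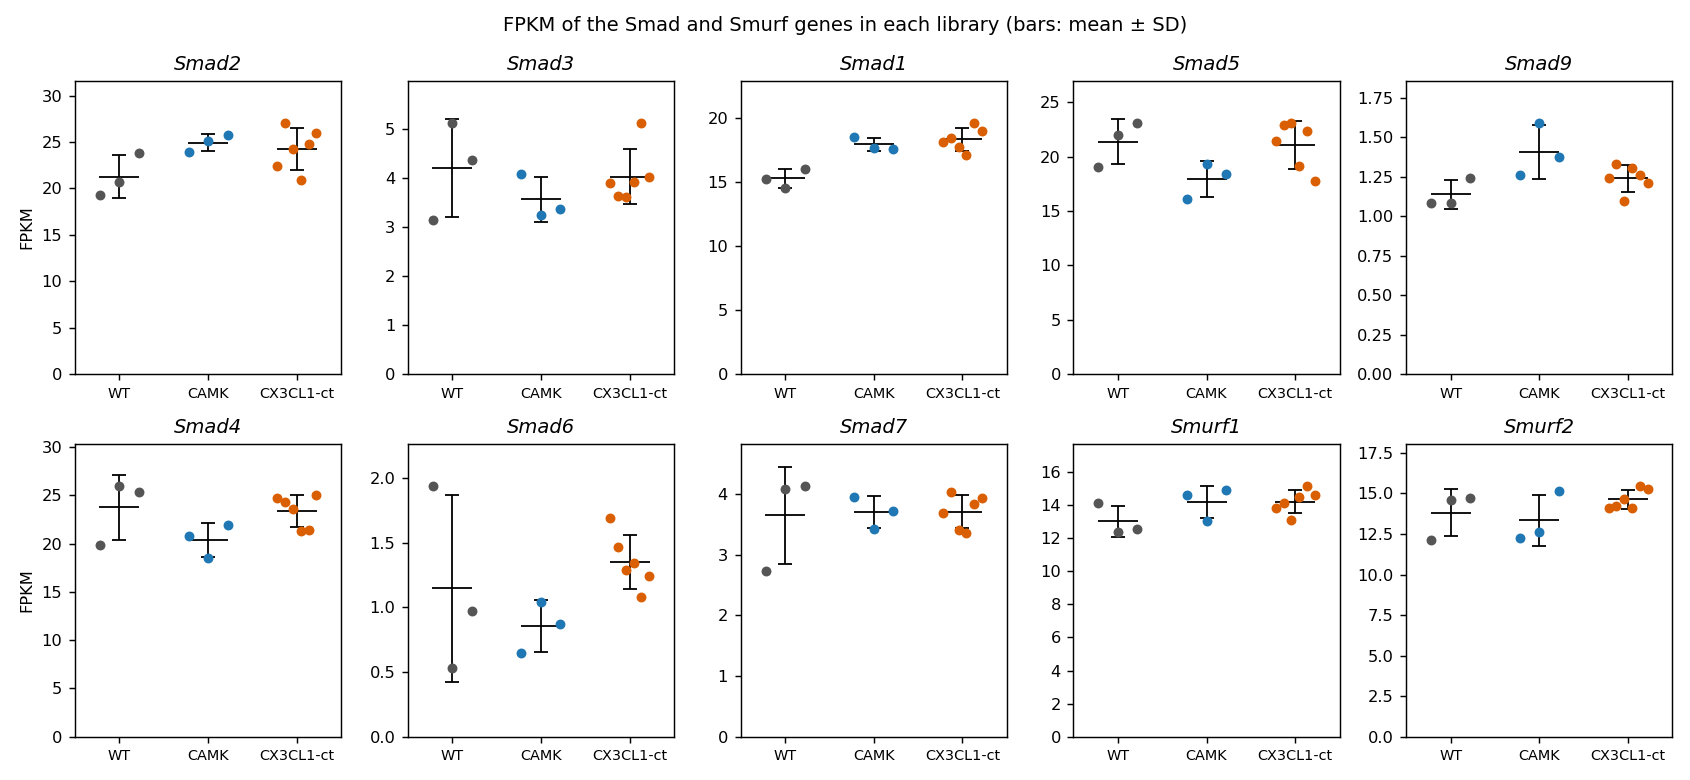
FPKM (y axis, linear, from 0) of the 10 members of single libraries, drawn as points above their group (x axis) with the group mean ± SD as bars. Smad1 sits at 14.6 to 16.0 in WT and at 17.1 or more in every library with the driver, and Smad6 at 1.08 or more in every CX3CL1-ct library and at most 1.04 in CAMK.

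Among the Smads that serve the TGF-β and activin receptors, Smad2 had the higher RNA level. It stood at 19.3, 20.7 and 23.8 FPKM in WT 1 to 3, at 23.9, 25.1 and 25.7 in CAMK 1 to 3, and at 20.95 to 27.1 (median 24.6) in CX3CL1-ct. All 3 CAMK libraries were above all WT libraries, narrowly, while CX3CL1-ct overlapped both other groups. Means were 21.3 ± 2.31 FPKM (SD, n = 3) in WT, 24.9 ± 0.927 (n = 3) in CAMK and 24.3 ± 2.25 (n = 6) in CX3CL1-ct. On the log2(FPKM + 1) scale, CAMK exceeded WT by 0.22 (SE 0.10, limma adjusted p = 0.382) and CX3CL1-ct exceeded WT by 0.18 (SE 0.08, adjusted p = 0.412). CX3CL1-ct differed from CAMK by -0.04, with a 95% interval of -0.23 to 0.14, or 0.855 to 1.10 times.

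Smad3, the TGF-β-type Smad that binds DNA itself, was far lower. It stood at 3.14, 5.12 and 4.35 FPKM in WT, at 4.08, 3.24 and 3.36 in CAMK and at 3.61 to 5.11 (median 3.89) in CX3CL1-ct. The 3 groups overlapped, and the highest values were in WT 2, CX3CL1-ct 5 and WT 3. The log2 difference was 0.14 for CX3CL1-ct against CAMK (95% interval -0.14 to 0.42, adjusted p = 0.901), -0.04 for CX3CL1-ct against WT (-0.32 to 0.24) and -0.18 for CAMK against WT (-0.50 to 0.14). Without CX3CL1-ct 5 the difference from CAMK was 0.08 (adjusted p = 0.863, range over the 24 alternatives 0.762 to 1).

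Striatum markers were highest in the same libraries as Smad3. WT 2, WT 3 and CX3CL1-ct 5 held 4.35 to 5.12 FPKM of Smad3 against 3.14 to 4.08 elsewhere, and 7 of 8 striatum markers, all but Foxp1, were also higher in these 3 libraries than in every other. Over the genes tested, 5.05% were. The mean log2(FPKM + 1) of the striatum list was 4.48 to 5.03 in these 3 libraries and 2.62 to 3.10 in the other 9. Its summed level spanned 62.3 to 283 FPKM in WT, 72.6 to 78.6 in CAMK and 61.6 to 196 in CX3CL1-ct, with no marker at 0. The part of these markers in the Smad3 values was not tested.

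Smad1, a BMP-type Smad, showed the clearest separation of groups in the family. It stood at 15.2, 14.6 and 16.0 FPKM in WT, at 18.5, 17.6 and 17.6 in CAMK and at 17.1 to 19.6 (median 18.3) in CX3CL1-ct. Every one of the 9 libraries with the driver was above every WT library, while CAMK and CX3CL1-ct overlapped. Such a separation in the higher direction was found for 448 of the 16503 genes tested (2.71%). Means were 15.3 ± 0.736 FPKM (SD, n = 3) in WT, 17.9 ± 0.521 (n = 3) in CAMK and 18.3 ± 0.896 (n = 6) in CX3CL1-ct.

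The log2 difference of Smad1 between CX3CL1-ct and WT was 0.25 (SE 0.05, 95% interval 0.13 to 0.37, a ratio of mean FPKM of 1.20). Its limma p was 0.000746 before and 0.0861 after adjustment over all genes, which misses the threshold of 0.05, and over the 24 alternatives the adjusted p ranged from 0.0525 to 0.485. The exact two-sided permutation p was 0.0119, the smallest that 6 against 3 libraries can give. Between CAMK and WT the difference was 0.22 (SE 0.06, interval 0.08 to 0.36, adjusted p = 0.183), with an exact p of 0.1, the smallest that 3 against 3 can give. Between both groups with the driver it was 0.03 (interval -0.09 to 0.15, adjusted p = 0.965).

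Other cell type markers separated the same libraries. The 11 markers of meninges and fibroblasts had a mean log2(FPKM + 1) of 1.94 to 2.40 in WT, 2.43 to 2.61 in CAMK and 2.56 to 3.38 in CX3CL1-ct. Summed, they reached 42.7 to 60.8 FPKM in WT, 64.5 to 71.8 in CAMK and 67.5 to 138 in CX3CL1-ct, with none at 0. In CX3CL1-ct against WT 11 of 11 had a positive difference and 5 passed limma's adjusted threshold, where 62.7% of all genes tested were positive and 0.454% passed. In CAMK against WT 10 of 11 were positive and 0 passed, where 50.5% of all genes were positive and 0.358% passed. Markers of dividing cells went the other way, with a sum of 42.9 to 50.7 FPKM in WT, 28.6 to 32.3 in CAMK and 32.3 to 41.0 in CX3CL1-ct, and 7 of 7 negative in each comparison with WT, of which 2 passed for CAMK and 0 for CX3CL1-ct. None of these was at 0. Whether either list has a part in the Smad1 values was not tested.

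**Figure D2:**
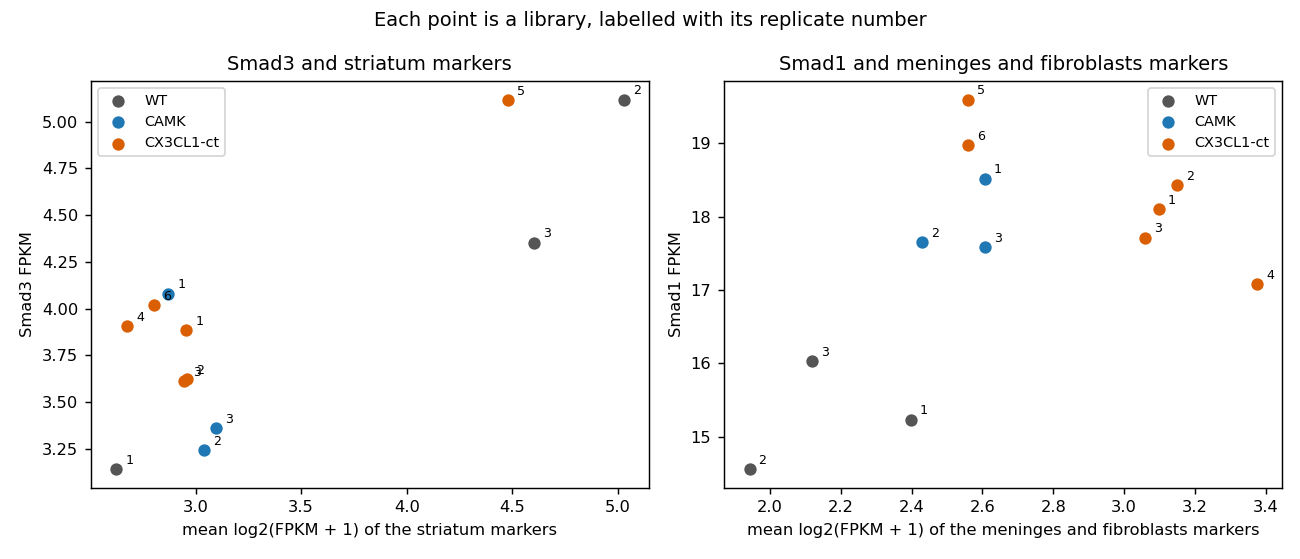
Left, FPKM of Smad3 (y axis) against the mean log2(FPKM + 1) of 8 striatum markers (x axis); right, FPKM of Smad1 against that of 11 markers of meninges and fibroblasts, with each point a library labelled by its replicate number and neither axis starting at 0. WT 2, WT 3 and CX3CL1-ct 5 are highest in Smad3 and in striatum markers (4.48 to 5.03), and the 3 WT libraries are lowest in Smad1 and in meningeal markers (1.94 to 2.40).

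Smad5, the most abundant BMP-type Smad, was arranged differently from Smad1. It stood at 19.1, 21.9 and 23.1 FPKM in WT, at 16.1, 19.3 and 18.4 in CAMK and at 17.7 to 23.1 (median 21.9) in CX3CL1-ct. CAMK tended to the low end, and all 3 groups overlapped. CAMK was below WT in all 3 pairs of the same number. Such pairing is not established, and the share of all genes with the same sign in all 3 pairs was not counted. Means were 21.4 ± 2.06 FPKM (SD, n = 3), 17.9 ± 1.64 (n = 3) and 21.1 ± 2.19 (n = 6). CX3CL1-ct exceeded CAMK by 0.22 on the log2 scale (SE 0.10, 95% interval 0.01 to 0.43), with a limma p of 0.0398 that became 0.774 after adjustment and an exact p of 0.107. With CX3CL1-ct 1 to 3 alone the difference was 0.31, and with CX3CL1-ct 4 to 6 alone 0.13. CAMK differed from WT by -0.24 (SE 0.11, adjusted p = 0.404; with the numbers as pairs SE 0.10, adjusted p = 0.328), and CX3CL1-ct from WT by -0.02 (interval -0.23 to 0.19).

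Smad9, the third BMP-type Smad, was near 1 FPKM throughout. It stood at 1.09, 1.09 and 1.24 FPKM in WT, at 1.26, 1.59 and 1.37 in CAMK and at 1.09 to 1.33 (median 1.25) in CX3CL1-ct. The CAMK libraries were all above the WT libraries, with 1.26 next to 1.24 FPKM at the boundary, and CX3CL1-ct overlapped both. CAMK exceeded WT by 0.17 on the log2(FPKM + 1) scale (SE 0.10, adjusted p = 0.541) and by 1.24 times in mean FPKM, since the scale understates changes of low genes. CX3CL1-ct differed from CAMK by -0.10 (adjusted p = 0.892) and from WT by 0.07 (adjusted p = 0.789). An estimated 71 to 116 fragments per library lay behind these values. Its promoter window, shown above, was the only one of the 3 printed that held a GGCGCC.

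Smad4, which joins both arms, stood at 19.9, 26.0 and 25.3 FPKM in WT, at 20.8, 18.5 and 21.9 in CAMK and at 21.3 to 25.02 (median 23.9) in CX3CL1-ct. CAMK was low, but WT 1 lay among its libraries and CX3CL1-ct overlapped it at the lower end. CX3CL1-ct exceeded CAMK by 0.19 on the log2 scale (SE 0.09, 95% interval -0.01 to 0.39), with a limma p of 0.0612 that became 0.775 after adjustment. CAMK differed from WT by -0.20 (adjusted p = 0.472) and CX3CL1-ct from WT by -0.01 (interval -0.21 to 0.18).

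Smad6, an inhibitor known to act mainly on BMP signals, was the most variable member. It stood at 1.94, 0.532 and 0.969 FPKM in WT, at 0.647, 1.04 and 0.874 in CAMK and at 1.08 to 1.69 (median 1.31) in CX3CL1-ct. All 6 CX3CL1-ct libraries were above all 3 CAMK libraries, with 1.08 next to 1.04 FPKM at the boundary, while WT held both the highest and the lowest library of all. Outside CX3CL1-ct only WT 1 and CAMK 2 reached 1 FPKM, so Smad6 passed the filter only through the CX3CL1-ct group. Its lack of overlap with CAMK is therefore a description and not support for a difference. The coefficient of variation over 12 libraries was 34.7%, against 6.65% to 16.4% for the other 9 members.

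Between CX3CL1-ct and CAMK the log2(FPKM + 1) difference of Smad6 was 0.34 (SE 0.17, 95% interval -0.04 to 0.72), and the ratio of mean FPKM was 1.58. Its exact permutation p was 0.0119, the smallest possible, which restates the lack of overlap. The limma p was 0.0731, or 0.775 adjusted over all genes (range over the alternatives 0.384 to 1). The difference was 0.18 for CX3CL1-ct against WT (SE 0.17, adjusted p = 0.707), turning to -0.04 without WT 2, and -0.16 for CAMK against WT (SE 0.20, adjusted p = 0.807), turning to 0.09 without WT 1 and reaching -0.38 without WT 2. Only an estimated 21 fragments lay behind Smad6 in WT 2, and at most 88 in any library. Smad6 is known to be strong in vessels, and markers of endothelial and mural cells were summed to 109 to 134 FPKM in WT, 123 to 140 in CAMK and 116 to 156 in CX3CL1-ct. None of these 11 markers was at 0, and 10 of 11 had a positive difference in CX3CL1-ct against CAMK (median 0.09). The meningeal markers were positive for 11 of 11 in the same comparison (median 0.41), where 63.2% of all genes were positive. The part of either list in the Smad6 values was not tested.

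Smad7, an inhibitor of both arms, stood at 2.72, 4.07 and 4.14 FPKM in WT, at 3.95, 3.42 and 3.72 in CAMK and at 3.36 to 4.03 (median 3.76) in CX3CL1-ct. Apart from WT 1, the lowest, the libraries of the 3 groups lay in the same range. Group means were 3.64 ± 0.797 FPKM (SD, n = 3), 3.70 ± 0.266 (n = 3) and 3.71 ± 0.277 (n = 6). The difference between CX3CL1-ct and CAMK was 0.00 on the log2 scale, with a 95% interval of -0.23 to 0.23, and those with WT were 0.03 for each group, turning to -0.12 for each without WT 1. Smad7 was 1.40 to 7.65 times Smad6 in WT, 3.28 to 6.11 times in CAMK and 2.17 to 3.56 times in CX3CL1-ct.

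Smurf1 and Smurf2, the ubiquitin ligases, varied least along with Smad1. Smurf1 stood at 14.1, 12.4 and 12.6 FPKM in WT, at 14.6, 13.1 and 14.9 in CAMK and at 13.1 to 15.2 (median 14.3) in CX3CL1-ct. Smurf2 stood at 12.1, 14.6 and 14.7 FPKM in WT, at 12.3, 12.6 and 15.1 in CAMK and at 14.1 to 15.5 (median 14.4) in CX3CL1-ct. The groups overlapped for both genes, and the low values of Smurf2 were in WT 1, CAMK 1 and CAMK 2. For CX3CL1-ct against CAMK the log2 difference was 0.00 for Smurf1 (95% interval -0.14 to 0.14) and 0.13 for Smurf2 (-0.04 to 0.30). Against WT, Smurf1 was higher by 0.12 in CX3CL1-ct and by 0.11 in CAMK, with adjusted p of 0.485 and 0.585. Smurf2 differed from WT by 0.08 in CX3CL1-ct and by -0.05 in CAMK, with adjusted p of 0.699 and 0.881.

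**Figure D3:**
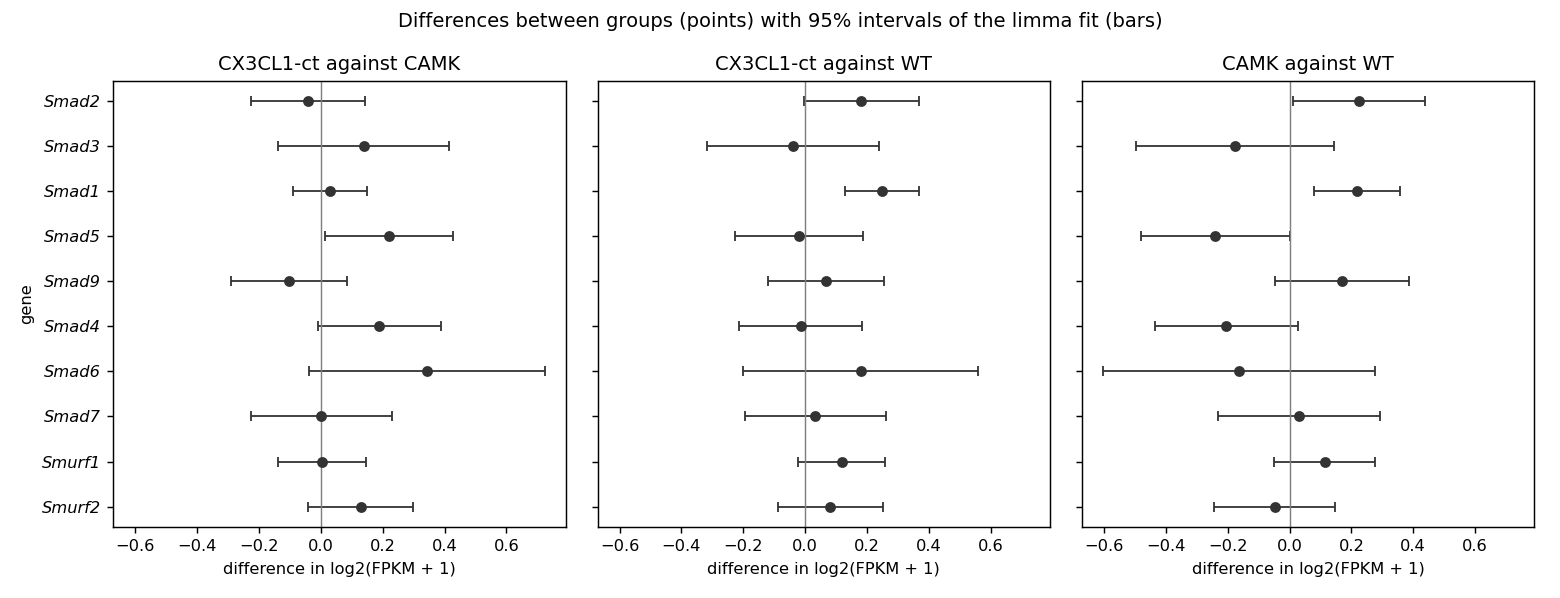
Differences in log2(FPKM + 1) between groups (x axis) for the 10 members (y axis) in the 3 comparisons, with points at the limma estimate and bars for its 95% interval. The interval of Smad1 lies above 0 in both comparisons with WT (0.13 to 0.37 for CX3CL1-ct, 0.08 to 0.36 for CAMK) and spans 0 between CX3CL1-ct and CAMK (-0.09 to 0.15).

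The comparison of CX3CL1-ct with CAMK addresses the CX3CL1 transgene on top of the driver. Smad5, Smad4 and Smad6 had the largest positive differences (0.22, 0.19 and 0.34) and Smad9 the largest negative one (-0.10). No member passed limma's adjusted threshold of 0.05, where 0.0606% of all genes tested did. Unadjusted, 1 of 10 was under 0.05, Smad5, against 6.37% of all genes. By exact permutation, run on the members alone and so without a share of all genes, it was 1 of 10, Smad6. That value restates the lack of overlap given next. The groups did not overlap for 1 of 10 members, Smad6, against 3.3% of all genes in either direction and 2.78% in that direction. Smad6 passed the filter only through CX3CL1-ct, so no result about it is drawn from this. A positive difference was found for 8 of 10 members (63.2% of all genes) with a median of 0.08, beside 0.04 over all genes, and with each library scaled to its median 5 of 10 were positive. The smallest adjusted p in any of 24 alternatives was 0.0598, for Smad5 with the replicate number as a block, a fit that rests on CX3CL1-ct 1 to 3 since 4 to 6 have no partner, and for that gene and comparison the alternatives reached 1.

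CX3CL1-ct against WT compares pups with driver and transgene with pups that have neither. Smad1 had the largest difference (0.25), and Smad2 and Smad6 followed (0.18 for each). By limma 0 of 10 members passed after adjustment (0.454% of all genes) and 1 of 10 before it, Smad1 (12.3% of all genes). By exact permutation, run on the members alone, 1 of 10 was under 0.05, the same gene, which restates the lack of overlap given next. The groups did not overlap for Smad1 alone among the members, against 6.04% of all genes in either direction and 4.67% in that direction. Differences were positive for 7 of 10 members (62.7% of all genes), with a median of 0.07 beside 0.04 over all genes, and for 6 of 10 with each library scaled to its median.

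CAMK against WT shows the driver without the CX3CL1 transgene. Smad2 and Smad1 were higher in CAMK (0.22 for each), Smad9 by 0.17, and Smad5, Smad4, Smad3 and Smad6 were lower (-0.24, -0.20, -0.18 and -0.16), so 5 of 10 members were positive (50.5% of all genes) with a median of -0.01, beside 0.00 over all genes. Single libraries moved several of these values: without WT 1 Smad6 was 0.09, Smad3 -0.33, Smad4 -0.32 and Smad5 -0.32, and without WT 2 Smad6 was -0.38, Smad3 -0.05 and Smad4 -0.14. limma called 0 of 10 members after adjustment (0.358% of all genes) and 2 of 10 before it, Smad1 and Smad2 (12.4% of all genes), and 3 against 3 libraries cannot reach 0.05 by exact permutation. The groups did not overlap for 3 of 10 members, Smad1, Smad2 and Smad9, all higher in CAMK, against 18.0% of all genes in either direction and 9.22% in that direction. All 3 comparisons share libraries in pairs, so their values are not independent of each other.

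Ratios within a library do not depend on its scaling. Smad1 over Smad5, the 2 main BMP-type Smads, was 0.798, 0.663 and 0.694 in WT, 1.15, 0.914 and 0.956 in CAMK and 0.767 to 1.07 (median 0.861) in CX3CL1-ct. All CAMK ratios were above all WT ratios, with CX3CL1-ct between and overlapping both. Smad2 over Smad4 was 0.795 to 0.973 in WT, 1.15 to 1.36 in CAMK and 0.908 to 1.16 in CX3CL1-ct, again with CAMK above WT and CX3CL1-ct overlapping each. The BMP-type Smads summed (Smad1, Smad5 and Smad9) over the TGF-β-type Smads (Smad2 and Smad3) gave 1.43 to 1.58 in WT, 1.28 to 1.36 in CAMK and 1.26 to 1.55 in CX3CL1-ct, so more BMP-type than TGF-β-type Smad RNA per length was present in every library. The inhibitory Smads summed to 0.0667 to 0.0806 of the 5 receptor-regulated Smads. No test was made on these ratios, which were formed after the single genes had been seen. Markers of the neocortex were summed to 39.9 to 77.6 FPKM in WT, 87.4 to 137 in CAMK and 53.5 to 160 in CX3CL1-ct. In CAMK against WT 5 of 7 were positive and 0 passed, where 50.5% of all genes were positive and 0.358% passed. Their mean log2(FPKM + 1) was highest in CX3CL1-ct 6 (4.11) and CAMK 1 (3.93), which also had the highest Smad1 over Smad5. Their part in the ratios was not tested.

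**Figure D4:**
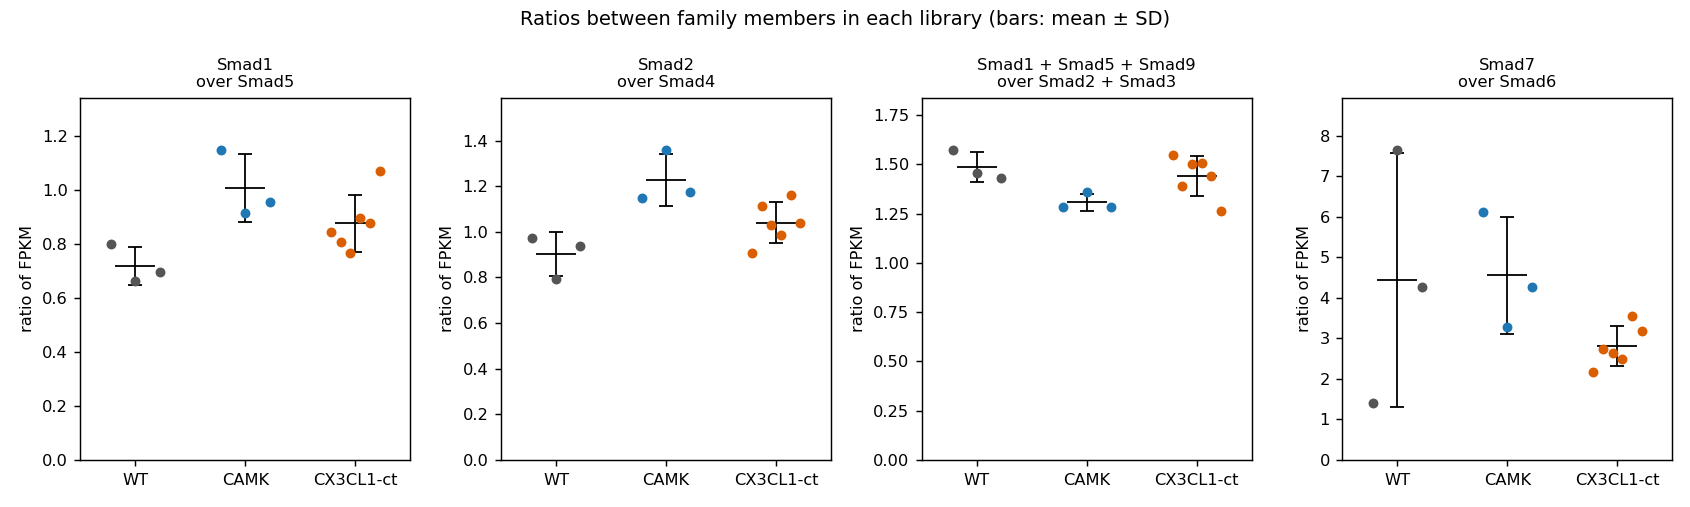
Ratios of FPKM between members (y axis, linear, from 0) of single libraries, drawn as points above their group (x axis) with the group mean ± SD as bars. Smad1 over Smad5 has a mean of 0.719 in WT, 1.01 in CAMK and, lying between them, 0.876 in CX3CL1-ct, and the ratio of BMP-type to TGF-β-type Smads stays between 1.26 and 1.58.

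Across the 12 libraries, pairs of members moved together to different degrees, described here by Pearson correlations of log2(FPKM + 1) over libraries that share genotype and tissue makeup. Smad2 and Smad1 had the highest value (0.74), followed by Smad1 and Smurf1, Smad4 and Smurf2 (0.65 for each pair) and Smad3 and Smad7 (0.64). The lowest were Smad7 and Smad6 (-0.63) and Smad3 and Smad6 (-0.53). Smad2 and Smad3, which serve the same receptors, had a value of -0.07, Smad5 and Smad1 one of -0.17, and Smurf1 and Smurf2 one of 0.08.

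The genes most like each member were taken as the highest correlations among 16503 genes, so values are high by choice. For Smad3 they were Ngef (0.94), a neuronal exchange factor, Adcy5 (0.92), an adenylyl cyclase that is abundant in striatal neurons, and the serotonin receptor gene Htr1d (0.88), each highest in WT 2, WT 3 and CX3CL1-ct 5. For Smad1 they were the imprinting regulator Zfp57, Pld2 and the cytoskeletal linker gene Dst (0.94 for each). For Smad2 they were Cep170 (0.95), Stx12 and Nol8 (0.89 for each), and for Smad5 Pcp4l1 (0.95), Arfip1 and Trp53inp1 (0.94 for each). Smad4 was most like 3110009E18Rik (0.96), Arid2 (0.89) and Zfp949 (0.88), and Smad6 like Lage3 (0.90), Rit1 (0.88) and Pla2g12a (0.87). Smad7 followed Gm37954 (0.91), Gen1 (0.89) and Cacna1e (0.88), and Smad9 followed Gm13612 (0.89), Micu2 and Vangl1 (0.81 for each). The ubiquitin ligase genes Smurf1 and Smurf2, in that order, were closest to Gnas (0.93), C030032O16Rik and Zfr2 (0.91 for each), and to 6820431F20Rik, Top1 and Zfp68 (0.92 for each).

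Around the members, 12 lists of pathway genes held 170 gene symbols, some of them second names of a listed gene, and 143 were tested. In CX3CL1-ct against CAMK 0 of 143 passed limma's adjusted threshold, in CX3CL1-ct against WT 1 passed, higher, and in CAMK against WT 0 passed, where 0.0606%, 0.454% and 0.358% of all genes did. Unadjusted, 14, 26 and 24 of 143 were under 0.05, where 6.37%, 12.3% and 12.4% of all genes were. Positive differences numbered 103, 105 and 83 of 143, or 72.0%, 73.4% and 58.0%, where 63.2%, 62.7% and 50.5% of all genes were positive. The gene that passed was Col1a2, a collagen chain that TGF-β induces in fibroblasts and that is also on the meningeal marker list. It stood at 9.39, 7.33 and 8.16 FPKM in WT, at 13.2, 13.4 and 14.0 in CAMK and at 11.7 to 27.7 in CX3CL1-ct, a log2 difference from WT of 1.06 (SE 0.20, adjusted p = 0.0420). All 9 libraries with the driver were above all WT libraries. The call held in 7 of 24 alternatives, with adjusted p between 0.000203 and 0.469.

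Among the ligands, 6 of 13 BMP and GDF genes and 7 of 11 TGF-β and activin genes were tested, and none passed. The BMP and GDF ligands had the largest list median, 0.49 for CX3CL1-ct against WT with 6 of 6 positive, against 0.19 with 5 of 6 positive for CX3CL1-ct against CAMK. The meningeal markers, whose part in these values was not tested, had medians of 0.73 and 0.41 in the same comparisons, with 11 of 11 positive in each, where 62.7% and 63.2% of all genes were positive. Bmp7 stood at 1.85 ± 0.364 FPKM (SD, n = 3) in WT, 2.37 ± 0.328 (n = 3) in CAMK and 3.65 ± 0.820 (n = 6) in CX3CL1-ct, a difference of 0.69 between the last and WT (adjusted p = 0.0806). Inha, a subunit of inhibin that opposes activin, stood at 11.1 ± 1.26 FPKM in WT and 15.4 ± 2.36 in CAMK (difference 0.43, adjusted p = 0.141).

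Of the receptors, 8 TGF-β and activin and 8 BMP receptor genes were tested and none passed in any comparison. Tgfbr2, which binds TGF-β, stood at 4.22 ± 0.649 FPKM in WT and 5.61 ± 0.836 in CX3CL1-ct (difference 0.34, adjusted p = 0.257). Acvr1, a BMP type I receptor, stood at 8.28 ± 0.0667 FPKM in WT, at 6.19 ± 0.245 in CAMK and at 6.83 ± 1.06 in CX3CL1-ct, a difference of -0.37 between CAMK and WT (adjusted p = 0.223). The list medians lay between 0.01 and 0.13 over the 3 comparisons.

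Inside the cell, none of 11 anchors and adaptors, 20 corepressors and nuclear partners, 21 ubiquitin ligases and deubiquitinases, 14 phosphatases and other negative regulators, 14 linker kinases and 8 transport genes passed. Dab2, an adaptor between receptors and Smads, stood at 3.89 ± 0.744 FPKM in WT and 5.99 ± 0.828 in CX3CL1-ct (difference 0.52, adjusted p = 0.0906). Sall1, a zinc finger repressor, stood at 3.41 ± 0.319 FPKM in CAMK and 5.97 ± 1.56 in CX3CL1-ct (difference 0.63, adjusted p = 0.725), with 7.26, 7.52 and 7.27 in CX3CL1-ct 1 to 3 and 4.83, 4.98 and 3.94 in CX3CL1-ct 4 to 6. Mapk3, one of the kinases that phosphorylate Smad linkers, was higher in CX3CL1-ct than in WT by 0.35 (adjusted p = 0.137), and so was Ldlrad4, a negative regulator of TGF-β signals, by 0.27 (adjusted p = 0.352). The ubiquitin ligase scaffold gene Cul1 differed by 0.15 in the same comparison (adjusted p = 0.352), and the import receptor gene Kpnb1 by 0.07 between CX3CL1-ct and CAMK (adjusted p = 0.824).

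The target lists hold genes that Smads are known to induce, but their RNA levels are not a measure of Smad activity. Of 11 BMP-Smad targets none passed, with 9 positive in CX3CL1-ct against CAMK (median 0.05) and 4 positive in each comparison with WT (medians -0.04 for CX3CL1-ct and -0.15 for CAMK). Nog, the BMP antagonist that BMP itself induces, stood at 2.36 ± 0.365 FPKM in WT and 3.33 ± 0.474 in CX3CL1-ct (difference 0.37, adjusted p = 0.185). Of 15 TGF-β-Smad targets, 11, 8 and 9 were positive in the same order of comparisons (medians 0.13, 0.03 and 0.03), and Col1a2 was the 1 that passed. Col1a2 and Col1a1 are also on the list of meningeal markers, whose part in these values was not tested.

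Replicate numbers were taken as pairs of WT and CAMK libraries by the check described in the processing section, which does not establish pairing. With the number as a block for these 3 pairs and the CX3CL1-ct libraries kept outside it, 0 of 143 pathway genes passed limma's adjusted threshold for CAMK against WT (0.261% of all genes) and 25 were under 0.05 unadjusted. With the WT and CAMK libraries alone, 2 of 143 passed (0.679% of all genes): the kinase gene Camk2a, whose promoter the driver uses, by -0.48 and the cell cycle inhibitor gene Cdkn1c by 0.72, each with an adjusted p of 0.0486. A block over all 3 groups, which also drops CX3CL1-ct 4 to 6 because they have no partner, gave 8 of 143 (2.97% of all genes), and dropping those libraries without a block gave 5. No Smad or Smurf gene passed in any of these fits, the smallest adjusted p being 0.192 for Smad1 with the pairs in all libraries, 0.112 for Smad5 with WT and CAMK alone and 0.0712 for Smad5 with the block over all groups. CAMK was above WT in all 3 pairs for Smad1, Smad2, Smad9 and Smurf1 and below it in all 3 for Smad5. For Smad1, Smad2 and Smad9 this follows from the groups not overlapping. The share of all genes with the same sign in all 3 pairs was not counted, so no result about the members is drawn from it.

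**Figure D5:**
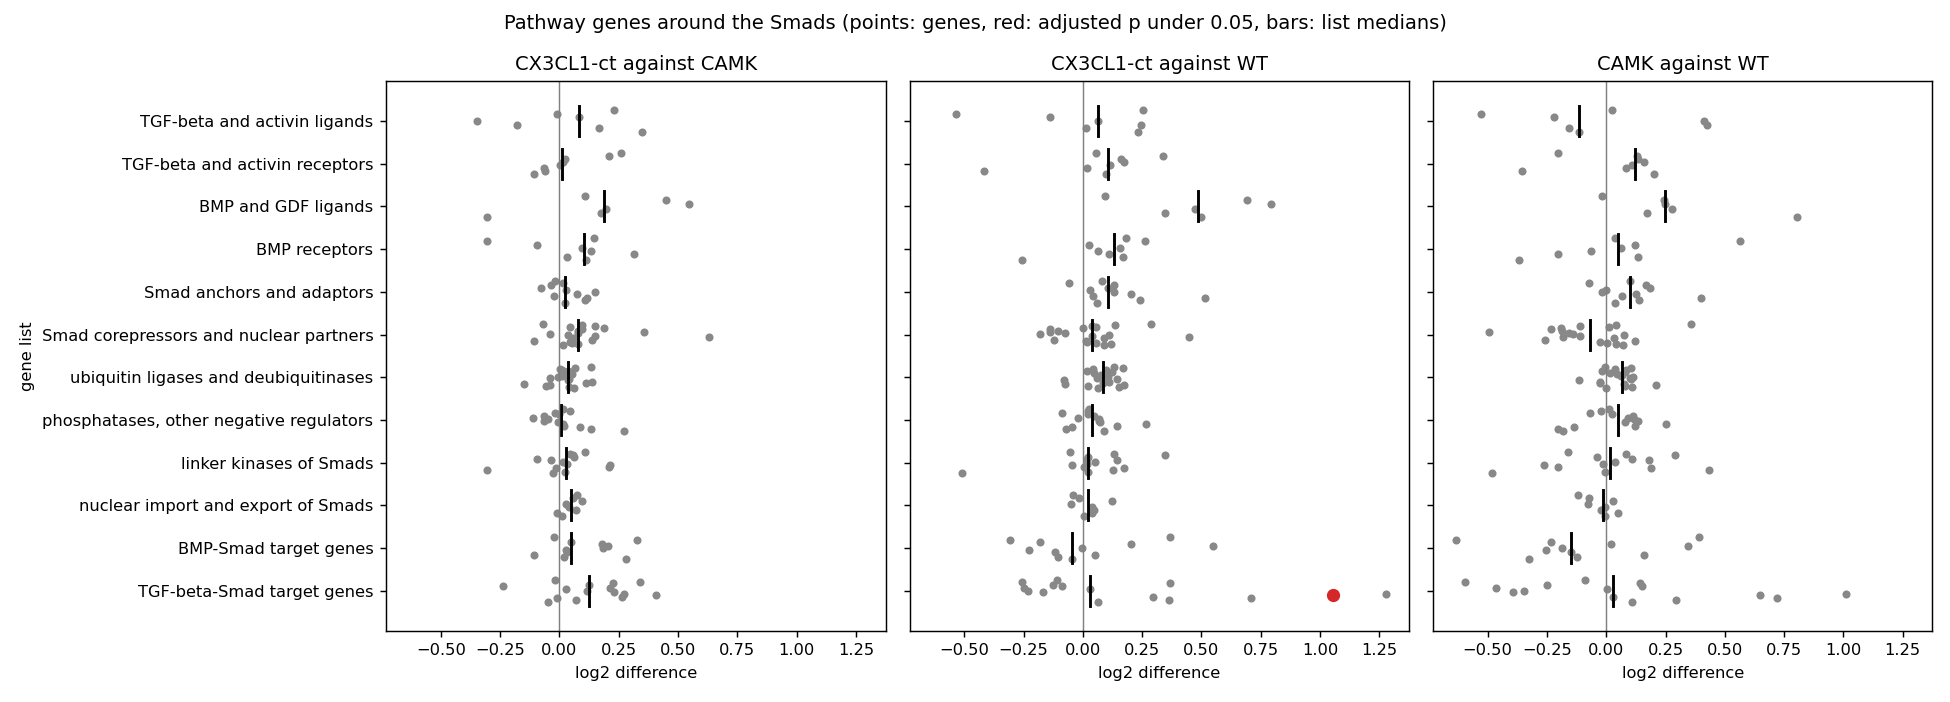
Differences in log2(FPKM + 1) (x axis) of the tested genes of 12 pathway lists (y axis) in the 3 comparisons, with grey points for genes that did not pass, a red point for the gene that did and bars at list medians. Col1a2 in CX3CL1-ct against WT (1.06) is the red point, and the BMP and GDF ligands in that comparison have the largest list median (0.49).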

How the data were processed

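Total RNA depleted of ribosomal RNA was made into stranded libraries and read from both ends for 100 cycles, per the labels' protocols. The authors deposited 1 table of FPKM values per gene and library. The submitters' processing notes name build mm10 and the tools TopHat, Bowtie, Cuffdiff and Cufflinks. The scaling of the FPKM across libraries and the use of strand in counting are not given in the sources used here. Sample titles gave the groups and replicate numbers. Depth was estimated from genes with 1 exon and 1 transcript, in which the lowest values cluster where 1 fragment lies. Fragments of 180 nt were assumed. Fragments behind a member were estimated with the length of all its annotated exons together, so these estimates may be too high.

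limma 3.58.1 (R 4.3.3) fitted 1 model of 3 group means to log2(FPKM + 1) of all 12 libraries (eBayes, trend). Its two-sided p-values were adjusted by the Benjamini-Hochberg method over the 16503 genes tested, with a threshold of 0.05. Single members were also compared by exact two-sided permutation of libraries. Tables and plots were made with Python 3.11.15, pandas 2.3.3, numpy 2.4.6, scipy 1.17.1 and matplotlib 3.10.9. Exon overlaps come from GENCODE M21, which holds 29258 of the table's IDs. The fit was tested on simulated data of 16503 genes, 100 of them changed 2-fold and 100 changed 4-fold: 90 and 97 were recovered for CX3CL1-ct against CAMK, 91 and 99 for CX3CL1-ct against WT, and 86 and 98 for CAMK against WT. False calls were 10 of 197, 12 of 202 and 11 of 195. Recovery of differences as small as those fitted for the members, at most 0.34 on the log2(FPKM + 1) scale, was not tested.

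Pairing by number was checked on how libraries deviate from their group means. Over genes, WT and CAMK libraries of the same number correlated by 0.236, 0.163 and 0.100, each over 0.1 (the last is 0.100266), so these numbers were taken as pairs. The numbers of CX3CL1-ct were not, with correlations of 0.110, -0.130 and -0.0912 to CAMK and of 0.114, -0.0622 and 0.0106 to WT. CX3CL1-ct 1 thus also lay over 0.1 with both groups. Libraries of unlike number were not correlated as a reference, so the check does not establish pairing. The text names all 10 members, each pathway gene past the threshold, the gene with the smallest p of every other list, and the 3 genes most like a member. Cdkn1c and Camk2a were named after their values were seen, and both fits with these pairs as a block were chosen after seeing the data. Members and lists were chosen with earlier results of these data known. Alternatives were the pseudocount, the filter, the scaling, the samples and prior of the fit, the replicate block and leaving out libraries.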

Additional observations from a re-analysis of the deposited data

Results flagged for a closer look

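Smad3 in CX3CL1-ct 5 stood at 5.114 FPKM, apart from the other 5 libraries of its group, which spanned 3.61 to 4.02 FPKM. The gap to the nearest library was 0.7302 of the group's whole range, above Dixon's 95% critical value of 0.625 for 6 libraries. Chance marks about 1 in 20 groups in this way. The check was run in CX3CL1-ct on all 10 members and on the ratios and the sum formed from them. Only this value was marked, and 1 mark among so many checks is not unusual by chance. The same library had the highest mean of striatum markers in its group (4.48, against 2.68 to 2.96 elsewhere in the group) and the lowest sum of hippocampal defining genes (100.4 FPKM); their part in the Smad3 value was not tested.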

How the results depend on the processing

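None of the 30 member differences (10 members in 3 comparisons) passed the threshold in any of the 717 recomputed values over 24 alternatives each, where Smad6 drops out under the filter of at least 1 FPKM in all libraries. Signs changed in 39 of the 717, over 12 differences. Those larger than their standard error that turned were Smurf2 in CX3CL1-ct against WT (-0.002279 without WT 1, and up to 0.1265 when leaving out any 1 library) and Smad6 in the same comparison (-0.03805 without WT 2, and up to 0.4322 without WT 1); the cause was not tested. The order of the 10 mean levels was the same with medians and without each library, although neighbours change places within libraries, and the mean ratio of BMP-type to TGF-β-type Smads was 1.406 to 1.437 (1.42 as reported).

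Pathway gene counts moved more; alternatives on these counts other than the pseudocount, filter, scaling and 2-group fits were chosen after seeing the data. For CX3CL1-ct against CAMK (0) the count was 3 with the replicate block (Bmp6, Sall1 and Col1a2) and 3 without CX3CL1-ct 4 to 6. For CX3CL1-ct against WT (1) it was 12 with the replicate block and 12 without CX3CL1-ct 4 to 6. It was 0 with no filter, with the strict filter, with median scaling, with quantile normalization, with only the 2 groups, with no trend, with CX3CL1-ct 1 to 3 averaged and without CX3CL1-ct 1 to 3. Leaving out 1 library gave 0 to 4, with 0 for each WT, each CAMK and CX3CL1-ct 1, 2 and 3, then 2, 3 and 4 without CX3CL1-ct 4, 5 and 6. For CAMK against WT (0) it was 8 with the replicate block, 5 without CX3CL1-ct 4 to 6 and 0 to 1 when leaving out 1 library (1 without CX3CL1-ct 5). The block over all groups also drops CX3CL1-ct 4 to 6, which have no partner, so it is not a test of the pairing alone; with the block for the WT and CAMK pairs only the count was 0, and 2 with no other libraries in the fit. The block changed the call of no member. Over all genes, the alternatives gave 0 to 191 calls for CX3CL1-ct against CAMK (10 as reported), 23 to 540 for CX3CL1-ct against WT (75) and 20 to 490 for CAMK against WT (59). Calls for CX3CL1-ct against WT split 33 higher to 42 lower, and 21 to 52 with median scaling. Depth limits Smad6 and Smad9 most, with an estimated 21 to 116 fragments per library.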
